A study of Homo sapiens with 8 samples.

Results

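The MAGEA genes form a family of cancer-testis antigens on the X chromosome, and their messages were followed here in HCT116, a human colorectal cancer cell line, with and without the DNA demethylating drug 5-aza-2′-deoxycytidine (5-aza-dC) and with and without knockdown of TET1, a dioxygenase that oxidises 5-methylcytosine. The family was taken as 8 genes (MAGEA1, MAGEA3, MAGEA4, MAGEA6, MAGEA8, MAGEA10, MAGEA11 and MAGEA12), and every probe whose gene name on the array is one of these was used. Of these genes, 7 had a probe, with 8 probes in all out of 50599 distinct probes for 36337 gene names, and all 8 probes passed the filter on dim probes. No probe analysed here carried the name MAGEA3.

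Each of 8 Agilent one-colour arrays held RNA of 1 clone in 1 condition, and each condition had 2 clones. CONT1 and CONT2 carried pcDNA6.2-GW/EmGFP-miR-neg, a plasmid for a negative control microRNA. TET1-KD1 and TET1-KD2 carried plasmids for the artificial microRNAs miTET1-1 and miTET1-2, which target TET1. All 4 were selected with G418, and each was a line grown from 1 clone, so a difference between the control and the TET1-KD lines is also a difference between clones. Every clone was measured untreated and after 72 h in 1 µM 5-aza-dC. The array titles give these conditions and were followed, whereas another label field names mock treatment for all control arrays and the drug for all TET1-KD arrays.

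The 4 untreated arrays and both drug-treated TET1-KD arrays lay on 1 slide, and both drug-treated control arrays lay on another slide that was scanned later, so that for the response of the control clones slide and drug cannot be told apart. The same arrays enter the comparison of TET1-KD with control clones after the drug and the difference in response, where slide and knockdown cannot be told apart either. In intensities not scaled between arrays, spiked-in control RNAs were lower on the later slide by up to 1.00 on the log2 scale (E1A_r60_a135, mean 7.91 with an SD of 0.0364 over 6 arrays of the earlier slide and 6.90 on the later one). The 75th percentile of the other spots, to which levels were scaled, was also lower there (395.5 and 476.1, against 546.3 to 623.7 on the earlier slide). Between 29490 and 34276 of the 58717 non-control spots of an array were above background, and no spot was saturated. TET1 itself, by its brightest probe, was at log2 9.70 and 9.75 in untreated CONT1 and CONT2 and at 8.65 and 9.41 in TET1-KD1 and TET1-KD2, a difference of -0.69 that did not pass the test (adjusted p = 0.610, limma). Another TET1 probe differed by -0.98 (adjusted p = 0.585). The third TET1 probe was not well above background on any TET1-KD array, so its difference is only a bound, at least 1.201-fold higher in untreated control clones (adjusted p = 0.370).

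MAGEA proteins share the MAGE homology domain, through which they bind RING-type ubiquitin ligases and redirect them to new substrates. The genes are active in male germ cells and silent in most somatic tissues, where their promoters carry DNA methylation, and many tumours express them. Peptides of the proteins are presented on HLA class I molecules and are seen by T cells, which is how the family was found. In these promoters, ETS-type binding motifs that contain a CpG are a known point at which methylation blocks transcription.

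The promoter stretches of 5 members are shown because 5-aza-dC acts through cytosine methylation and because the members differed in how far they rose after it. Each line gives the 120 bases just before an annotated start (RefSeq, GRCh38.p14), 5′ to 3′ on the strand of the gene, with CpG dinucleotides in capitals. They lie at chrX:149881063-149881182 (plus strand) for MAGEA8, chrX:149711940-149712059 (plus strand) for MAGEA11, chrX:151912354-151912473 (plus strand, the most upstream of 5 starts) for MAGEA4, chrX:152769690-152769809 (minus strand) for MAGEA6 and chrX:152733637-152733756 (plus strand, the more upstream of 2 starts) for MAGEA12.
MAGEA8: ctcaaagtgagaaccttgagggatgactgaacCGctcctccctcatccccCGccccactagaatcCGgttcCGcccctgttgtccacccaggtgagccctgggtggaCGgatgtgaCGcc
MAGEA11: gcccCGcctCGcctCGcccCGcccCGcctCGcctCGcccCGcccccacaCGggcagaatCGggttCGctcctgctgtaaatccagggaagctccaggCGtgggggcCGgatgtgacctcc
MAGEA4: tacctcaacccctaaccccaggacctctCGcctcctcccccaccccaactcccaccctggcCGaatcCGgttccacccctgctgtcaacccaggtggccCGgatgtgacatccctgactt
MAGEA6: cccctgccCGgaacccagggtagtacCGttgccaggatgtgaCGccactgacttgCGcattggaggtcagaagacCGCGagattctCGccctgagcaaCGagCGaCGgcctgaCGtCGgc
MAGEA12: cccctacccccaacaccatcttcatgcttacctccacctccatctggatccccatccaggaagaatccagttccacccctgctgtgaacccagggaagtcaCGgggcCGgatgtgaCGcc

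Promoter windows of 300 bases (250 before to 50 after the start) were at hand for 6 members with 11 annotated starts, and not for MAGEA1 or MAGEA10. Their CpG counts lay between the quartiles of all 35114 windows, which were 4 and 28 around a median of 14. MAGEA12 held 9 and 15 CpGs at its 2 starts, MAGEA4 10 to 15 over its 5 starts, MAGEA8 12, MAGEA6 19 and MAGEA11 21. The windows of MAGEA3 and MAGEA6 were identical in all 300 bases.

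A run of 9 bases, GGATGTGAC, was present in at least 1 window of each of the 6 members and in 0.302% of all windows on either strand. It began 12 bases before the start of MAGEA8, 13 before that of MAGEA11, 20 before the most upstream MAGEA4 start, 12 and 117 before the starts of MAGEA12 and 86 before that of MAGEA6. The ETS core CCGGAT overlaps the run in MAGEA4, MAGEA11 and MAGEA12, and on either strand it occurred in 9 of the 11 member windows and in 7.12% of all windows. The MAGEA3 and MAGEA6 windows lacked these letters and held the ETS core CCGGAA instead, at 113 bases before the start. CCGGAA was in 2 of the 11 member windows and 17.2% of all windows. GC boxes (GGGCGG, either strand) were in 6 of 11 against 45%.

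**Figure D1:**
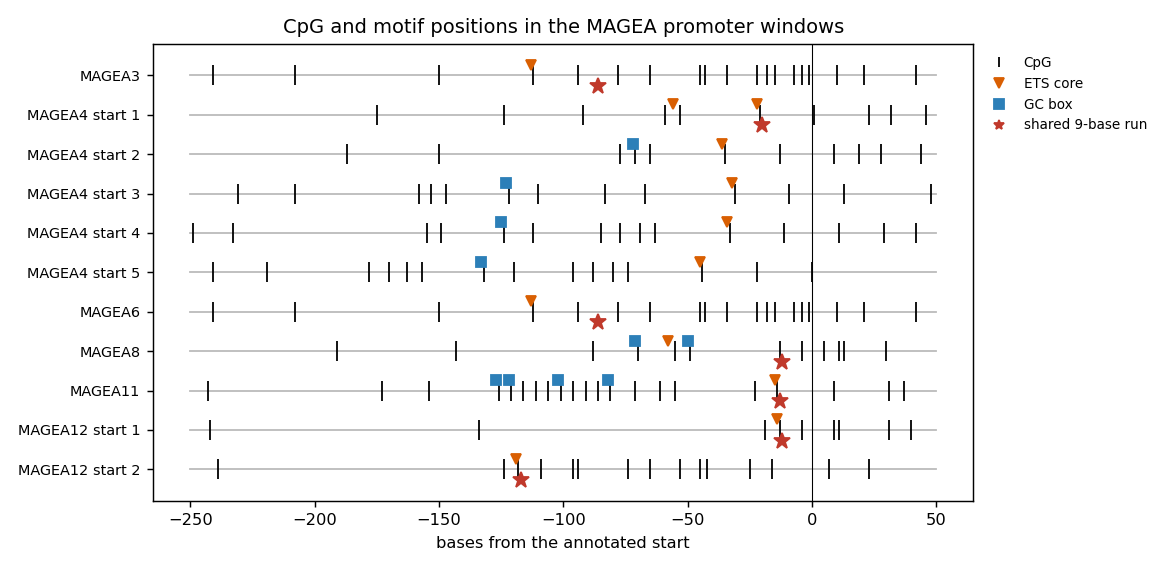
Positions of CpG dinucleotides (black bars), ETS core motifs (triangles), GC boxes (squares) and the shared run of 9 bases (stars) in the 300-base promoter windows of 6 MAGEA genes, in bases from the annotated start at 0, with 1 row for each start. MAGEA11 has 21 CpGs with 4 GC boxes, MAGEA12 has 9 at its more upstream start, and the MAGEA3 and MAGEA6 rows are the same.

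On the arrays, the level of a probe is the log2 of its processed intensity, brought to the same 75th percentile on every array. Levels are compared between arrays for 1 probe at a time, never between probes, because each 60-base probe has a brightness of its own. Before treatment the members fell into those above background and those not well above it. MAGEA1, MAGEA4, MAGEA6 and MAGEA12 were above background on all 4 untreated arrays. MAGEA8, MAGEA10 and MAGEA11 were above background on none of them, and on all 4 treated arrays. In these bulk RNA samples, fewer expressing cells and less RNA per cell cannot be told apart.

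The largest rises were those of the members not well above background before the drug. Untreated, MAGEA8 (probe at chrX:149014198-149014257, hg19) stood at log2 2.25, 2.01, 2.05 and 2.42 for CONT1, CONT2, TET1-KD1 and TET1-KD2, all not well above background. After 5-aza-dC it was at 11.72, 11.68, 11.01 and 11.64 in this order. Every treated array was far above every untreated one, with TET1-KD1 the lowest of the treated clones. Because the untreated level is only a ceiling, the rise is given as a bound, the mean of the treated arrays over the lowest signal that still counted as above background on the untreated arrays. MAGEA8 was at least 167-fold higher in the control clones (adjusted p = 2.62e-05) and at least 121-fold higher in the TET1-KD clones (adjusted p = 4.28e-05). Throughout, a p-value beside a bound is the limma p-value of the fitted change, not of the bound. MAGEA8, MAGEA10 and MAGEA11 entered the test only through the treated arrays, so that a low p-value for their rise was close to given.

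MAGEA10, whose peptides are known T cell targets, likewise went from not well above background to a clear signal (probe at chrX:151303134-151303193). Its untreated values of 2.17, 2.01, 2.04 and 2.42 in CONT1, CONT2, TET1-KD1 and TET1-KD2 were not well above background. After the drug, it was at 8.44, 8.76, 8.48 and 10.12 in the same order, so that TET1-KD2 stood apart from the other 3 clones. The bounds were at least 19.5-fold in control clones (adjusted p = 0.000339) and at least 29.9-fold in TET1-KD clones (adjusted p = 0.000402).

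MAGEA11 encodes a transcriptional coregulator, and its probe (chrX:148798090-148798149) was printed on the array in 10 copies. It was at 2.19, 2.01, 2.04 and 2.42 in untreated cells, not well above background, and at 7.91 and 7.82 in the treated control clones. The treated TET1-KD clones were at 6.71 and 8.14, on either side of the control clones. It was at least 11.7-fold higher in control clones (adjusted p = 0.000336) and at least 8.16-fold higher in TET1-KD clones (adjusted p = 0.000827).

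**Figure D2:**
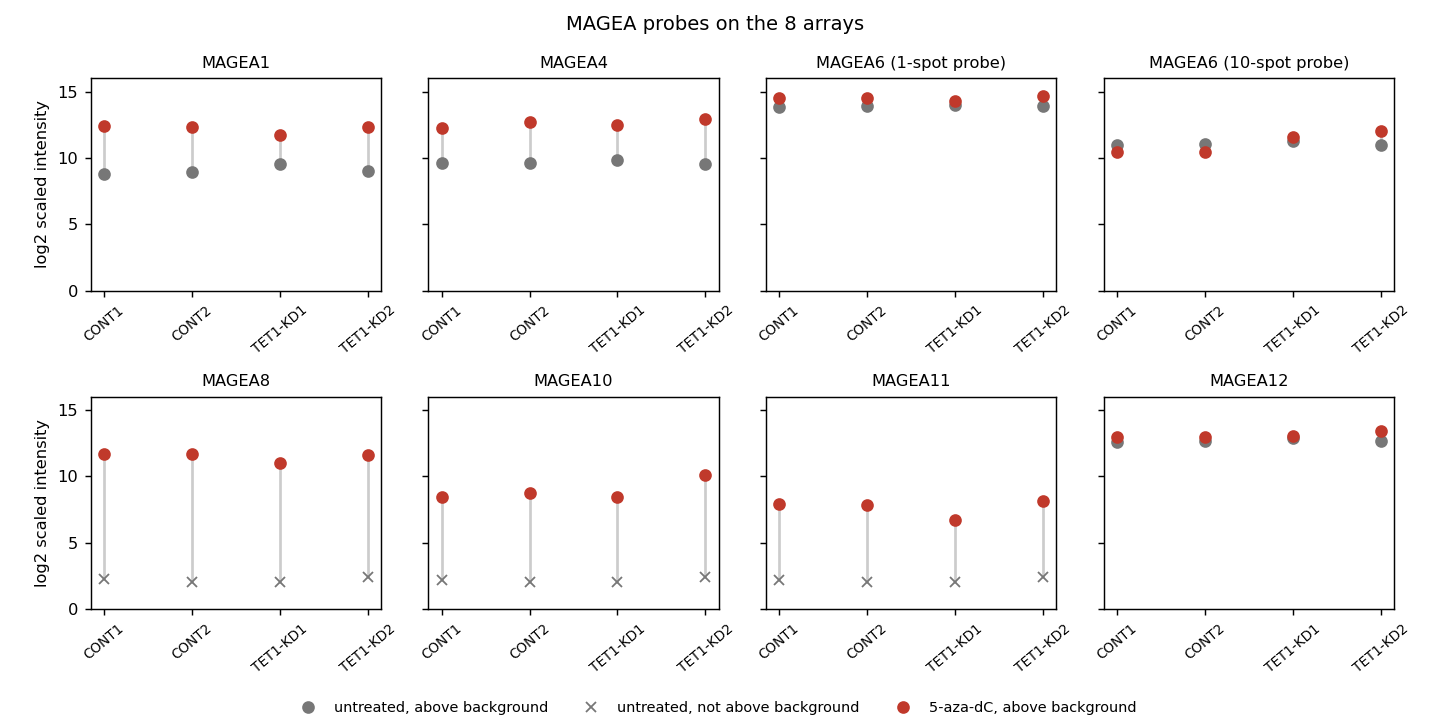
Level of each MAGEA probe (log2 scaled intensity) in the 4 clones, untreated (grey) and after 5-aza-dC (red), with crosses for values not well above background and grey lines joining the arrays of 1 clone. MAGEA8, MAGEA10 and MAGEA11 went from about 2, below background, to between 6.71 and 11.72, whereas MAGEA6 and MAGEA12 were high throughout.

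Of the members above background before the drug, 2 rose several-fold. MAGEA1, the first human tumour antigen found to be recognised by cytotoxic T cells and a binding partner of the transcriptional regulator SNW1 (SKIP), was at 8.79 and 8.93 in CONT1 and CONT2 without the drug and at 12.38 and 12.34 after treatment (probe at chrX:152481710-152481769). In the TET1-KD clones it went from 9.52 and 9.03 to 11.72 and 12.37. No treated value overlapped an untreated one. The change was 3.50 ± 0.266 on the log2 scale (SE, n = 2 clones a group, 11.3-fold, adjusted p = 0.000327, limma) in control clones and 2.77 ± 0.266 (6.82-fold, adjusted p = 0.00139) in TET1-KD clones.

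MAGEA4 binds the ubiquitin ligase RAD18 and is a target of engineered T cells. Its probe (chrX:151092474-151092533) was at 9.64, 9.64, 9.83 and 9.58 in untreated CONT1, CONT2, TET1-KD1 and TET1-KD2, close to each other. After 5-aza-dC the same clones were at 12.25, 12.69, 12.48 and 12.93. The change was 2.83 ± 0.233 in control clones (SE, n = 2, 7.10-fold, adjusted p = 0.000427, limma) and 3.001 ± 0.233 in TET1-KD clones (8.01-fold, adjusted p = 0.000587).

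MAGEA12 and MAGEA6 had strong signals before the drug and moved little. MAGEA12 (probe at chrX:151899912-151899971) was at 12.63, 12.71, 12.88 and 12.67 in the untreated clones and at 12.98, 12.98, 13.08 and 13.45 in the treated ones. Every treated value was higher, but the changes of 0.31 ± 0.178 in control clones and 0.49 ± 0.178 in TET1-KD clones did not pass the test (SE, n = 2, adjusted p = 0.207 and 0.138, limma).

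MAGEA6, which with its near twin MAGEA3 forms a ligase with TRIM28 that acts on AMPK, was read by a pair of probes that disagreed. The brighter probe (chrX:151870745-151870804, 1 spot) was at 13.86, 13.94, 14.03 and 13.91 in the untreated clones and at 14.55, 14.54, 14.29 and 14.68 after treatment. All 4 clones were higher after the drug, by 0.65 ± 0.176 in control clones (adjusted p = 0.0285, limma) and 0.51 ± 0.176 in TET1-KD clones (adjusted p = 0.121).
The call in control clones did not hold without any 1 of the 4 control arrays (adjusted p = 0.0925 to 0.135) or with a correction for the GC content of the probes (0.19, adjusted p = 0.432), with quantile normalisation (adjusted p = 0.0543), without the filter on dim probes (adjusted p = 0.0613) or with the mean of both MAGEA6 probes (0.03, adjusted p = 0.902).

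The other MAGEA6 probe (chrX:151870169-151870228, 10 spots) lies upstream in the same transcript and has a GC content of 51.7%, against 35% for the brighter probe. Untreated CONT1 and CONT2 were at 10.97 and 11.05, and after the drug at 10.42 and 10.43, so both control clones were lower. The TET1-KD clones went from 11.25 and 10.98 to 11.55 and 12.01, so both were higher. The changes were -0.58 ± 0.203 in control clones (adjusted p = 0.0615) and 0.67 ± 0.203 in TET1-KD clones (adjusted p = 0.0907), neither past the threshold of 0.05. The difference between the responses was 1.25 (95% confidence interval 0.55 to 1.94), with an adjusted p of 0.0618.

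After treatment, this probe was higher in the TET1-KD than in the control clones by 1.35 ± 0.203 (SE, n = 2, adjusted p = 0.00913, limma), whereas the brighter probe differed by -0.06 (95% confidence interval -0.49 to 0.37, adjusted p = 0.832). The treated control arrays that this comparison uses are those of the later slide. With each array set to the spiked-in controls, the difference at the 10-spot probe was 1.16 (adjusted p = 0.0161), with the GC correction it was 0.92 (adjusted p = 0.0252), and with only the 4 treated arrays in the fit its adjusted p was 0.0537. The part of slide and probe composition in the disagreement was not tested.

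This 10-spot probe also resembles the MAGEA12 probe, which is shown with it because hybridisation to a sister message would mix the readings. In a stretch of 31 aligned bases, 28 were equal, and the capitals mark the longest run of identical bases, 16 in length. No other pair of different members shared a run of more than 7 bases. Outside the 8, the MAGEA1 probe shared a run of 18 bases with the probe for the MAGEA10-MAGEA5 readthrough and a run of 9 with that of MAGEA9, equal at 22 of 27 aligned bases. The probes were compared only with each other and not with transcripts, so a match to a sister message outside the probes would not show. Whether the MAGEA6 probes also read MAGEA3 was not tested, nor was hybridisation to other sister messages.
MAGEA6: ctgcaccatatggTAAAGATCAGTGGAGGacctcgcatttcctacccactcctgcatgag
MAGEA12: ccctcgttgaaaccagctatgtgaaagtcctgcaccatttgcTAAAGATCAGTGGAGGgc

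Counted by the brightest probe of each gene, 6 of the 7 measured members rose in the control clones, where 19.2% of all 27287 tested probes were higher and 22.6% lower after 5-aza-dC. In the TET1-KD clones 5 of 7 rose, where 8.91% of all tested probes were higher and 2.9% lower. No member fell in either by its brightest probe. MAGEA6 is counted as risen in control clones, but the mean of both its probes changed by 0.03 there (adjusted p = 0.902, limma). Its 10-spot probe changed by -0.58 in control clones without passing (adjusted p = 0.0615, limma). MAGEA8, MAGEA10 and MAGEA11 entered the test only through the treated arrays, so their rise was close to given once they were tested. Of all 1948 tested probes that, like them, were above background on no untreated array, 85.2% were higher in control and 71.1% in TET1-KD clones. Of the 4 members above background on all untreated arrays, 3 rose in control and 2 in TET1-KD clones, against 13.2% and 3.04% of all 22656 such probes. The share of calls that were higher depended on the scaling: it was 45.9% in control clones, 69.6% with spike-in scaling and 36.2% with the GC correction, and in TET1-KD clones 75.5%, 84.9% and 37.6%. Spike-in scaling moved the median change over all probes in control clones from -0.08 to 0.26, and the GC correction moved it to -0.23 there and from -0.07 to -0.30 in TET1-KD clones. The members' counts were 6 and 5 with spike-in scaling and 5 and 5 with the GC correction. The median change of the members was 3.50 in control and 3.001 in TET1-KD clones, with the same medians when the genes below background were set at their bound, and the median over all tested probes was -0.08 and -0.07. The 5 genes that rose in both were MAGEA1, MAGEA4, MAGEA8, MAGEA10 and MAGEA11.

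**Figure D3:**
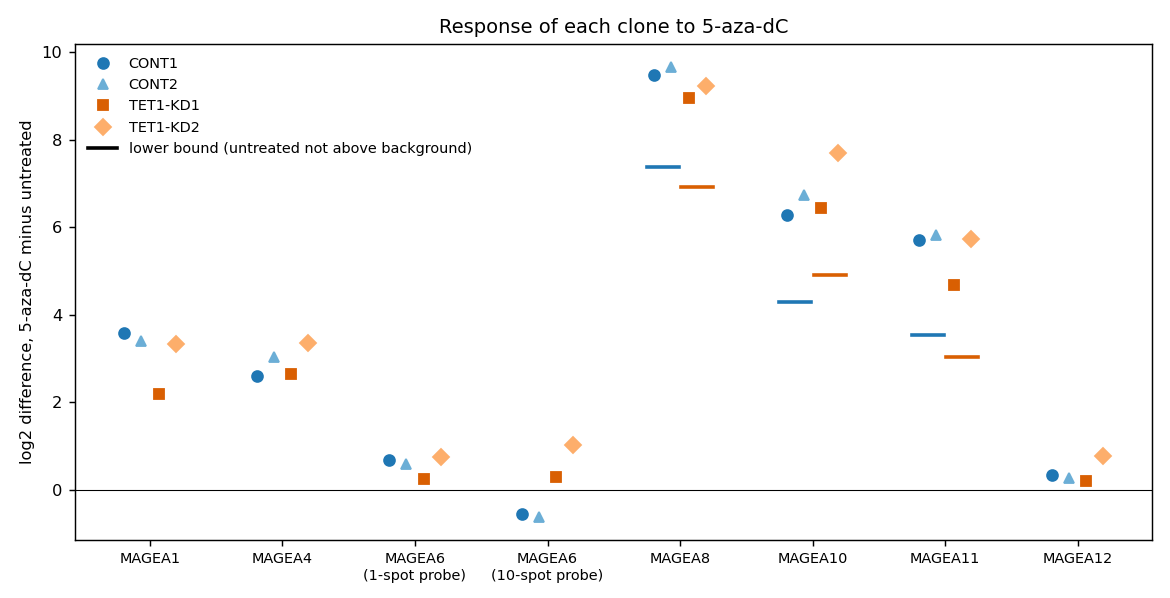
Change of each MAGEA probe after 5-aza-dC in each clone (log2 of treated minus untreated, 1 symbol for each clone), with bars at the lower bound of the mean change in control (blue) and TET1-KD clones (orange) where the untreated arrays were not above background. MAGEA1, MAGEA4, MAGEA8, MAGEA10 and MAGEA11 were higher in all 4 clones, and the 10-spot MAGEA6 probe was lower in both control clones and higher in both TET1-KD clones.

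The TET1-KD clones were next compared with the control clones, to ask whether loss of TET1 changes the family before or after the drug. Before treatment 0 of 7 members passed the test, and of all probes 0.00733% were higher and 0.00733% lower in TET1-KD cells by limma, while 2253 probes had an unadjusted p under 0.05. The differences of the 4 members above background, by their brightest probe, ran from 0.06 for MAGEA4 to 0.41 for MAGEA1 (95% confidence interval -0.23 to 1.06). After treatment 0 of 7 members passed by their brightest probe, where 11.9% of all probes were higher and 6.91% lower. The other MAGEA6 probe did pass, at 1.35 (adjusted p = 0.00913, limma), with the limits described above. Slide and knockdown cannot be told apart in that value.

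The intervals after treatment show how much could have been missed with 2 clones a group. MAGEA12 differed by 0.29 (TET1-KD minus control, 95% confidence interval -0.15 to 0.72), MAGEA4 by 0.24 (-0.33 to 0.80), MAGEA1 by -0.32 (-0.96 to 0.33) and MAGEA8 by -0.38 (-0.996 to 0.24). MAGEA6 differed by -0.06 (-0.49 to 0.37) at its brighter probe and by 1.35 (0.86 to 1.84) at the other. The widest intervals were those of MAGEA10, at 0.70 (-0.51 to 1.92), and MAGEA11, at -0.44 (-1.51 to 0.63), where the TET1-KD clones lay furthest apart. Without treated TET1-KD1, MAGEA10 differed by 1.52 (adjusted p = 0.0354), and without treated TET1-KD2, MAGEA11 differed by -1.15 (adjusted p = 0.0406). Both fits leave 1 treated TET1-KD array, which is assumed to vary like the other groups. The difference in response between the TET1-KD and the control clones was not past the threshold for any of the 7 members, against 4.02% of all probes with a larger and 1.56% with a smaller change in TET1-KD cells. These comparisons share arrays with the responses above.

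**Figure D4:**
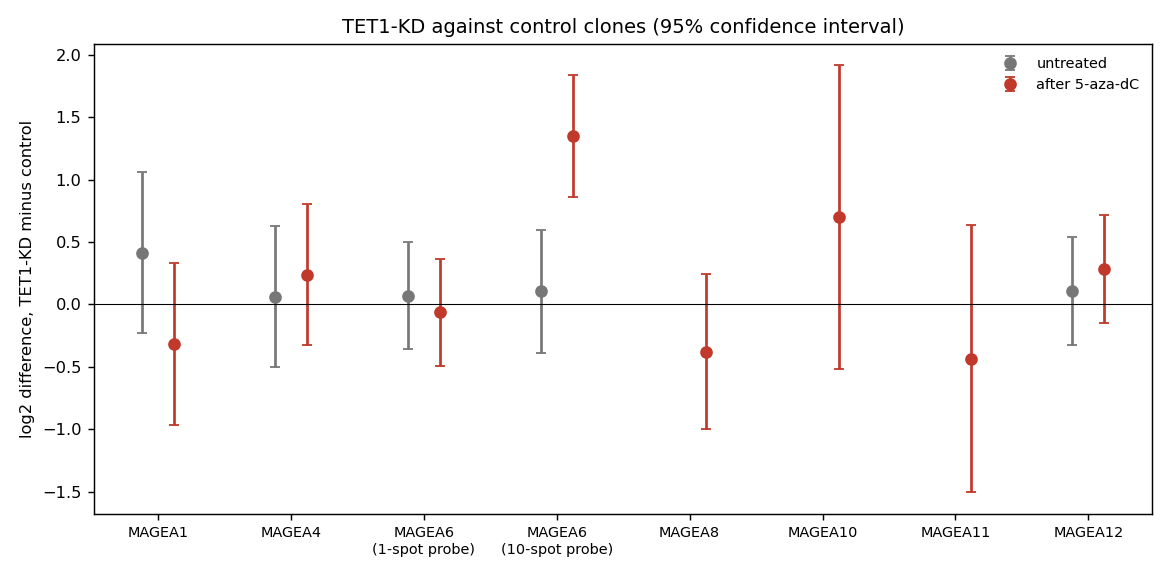
Difference of each MAGEA probe between TET1-KD and control clones (log2, mean of 2 clones minus mean of 2 clones) untreated (grey) and after 5-aza-dC (red), with 95% confidence intervals from the limma fit. Untreated values of MAGEA8, MAGEA10 and MAGEA11 are left out because all were below background, and the 10-spot MAGEA6 probe after treatment, at 1.35, is the point whose interval lies furthest from 0.

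Within the TET1-KD group, the clones differed from each other in 1 direction. TET1-KD2 had the larger response in 8 of 8 member probes, a pattern seen after the values were known, whereas 49.7% of all 27287 tested probes had the larger response in TET1-KD2. The median gap was 0.72 for the member probes and 0.00 for all probes. After treatment TET1-KD2 had the highest level of the 4 clones in 6 of the 8 probes, and TET1-KD1 had the lowest in 4. The untreated values of MAGEA8, MAGEA10 and MAGEA11 in these responses were not well above background. Among the 5 member probes above background on all untreated arrays, TET1-KD2 had the larger response in 5, with a median gap of 0.70, against 47.5% of all 22656 such probes with a median gap of -0.02. MAGEA9, outside the 8 and likewise not well above background before the drug, had nearly equal responses of 9.83 in TET1-KD1 and 9.81 in TET1-KD2. The gap was not particular to the family. The 5 gene symbols with profiles most like the members' mean, described below, also had the larger response in TET1-KD2. LUZP4 responded by 4.90 in TET1-KD1 and 5.83 in TET1-KD2, HDGFRP3 by 6.18 and 6.77 and DAZ2 by 4.93 and 5.56. TDRD12 responded by 6.43 and 7.87 and PRSS50 by 5.61 and 6.43. They were picked for likeness to the members, so this agreement is partly built in. The 2 lines carry different artificial microRNAs, and TET1-KD1 had the lower TET1 signal before treatment at both TET1 probes that were above background in these clones (8.65 against 9.41, and 4.56 against 5.71). The part of microRNA, TET1 level or any other difference between the 2 lines in this gap was not tested.

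Of the MAGEA genes outside the 8, only MAGEA9 and MAGEA2B were tested, and MAGEA9 entered the test only through the treated arrays. MAGEA9, not well above background on the untreated arrays, was at 11.99, 11.98, 11.74 and 12.08 in treated CONT1, CONT2, TET1-KD1 and TET1-KD2, at least 204-fold higher in control clones (adjusted p = 1.71e-05) and at least 183-fold higher in TET1-KD clones (adjusted p = 1.92e-05). MAGEA2B was bright before the drug and, like MAGEA6, had probes that disagreed. Its brighter probe changed by 0.73 in control clones (adjusted p = 0.0147) and 0.20 in TET1-KD clones (adjusted p = 0.492), and the other by 0.51 (adjusted p = 0.0837) and 1.28 (adjusted p = 0.0104). After treatment this other probe was higher in TET1-KD than in control clones by 0.78 (adjusted p = 0.0428, limma). The brighter probe differed by -0.36 (adjusted p = 0.175, limma). Slide and knockdown cannot be told apart in these 2 values. The probe for the MAGEA10-MAGEA5 readthrough was not well above background on any array.

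The related MAGEB and MAGEC genes, also X-linked and germ cell-restricted, also had members that rose. Of 13 with a probe, 7 passed the filter on dim probes, and all of these but MAGEB2 passed it only through treated arrays. Of the 7, all 7 rose in control clones and 6 in TET1-KD clones, where 19.2% and 8.91% of all tested probes were higher. Over the alternatives the counts ran from 1 to 7 and from 0 to 6. The 5 genes above background on no untreated array rose in both, against 85.2% and 71.1% of all 1948 such probes. Their rise was thus close to given once they were tested. MAGEB1 was at least 56.3-fold and 41.4-fold higher in control and TET1-KD clones. MAGEC2, a partner of TRIM28, was at least 18.1-fold and 49.3-fold higher, and was at 8.42 in treated TET1-KD1 and 11.63 in treated TET1-KD2. MAGEB2 resembled MAGEA6 and MAGEA12 in that it was bright before the drug, between 13.64 and 13.84, and it changed by 0.54 in control clones (adjusted p = 0.0256) and 0.26 in TET1-KD clones (adjusted p = 0.286).

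Of 56 listed genes outside the 8 that were called in control clones, 33 lost the call without 1 or another array, and of 29 in TET1-KD clones, 11 did. MAGEA9, MAGEB1, MAGEC2, MAGED4B, CTCFL, MBD1, PNMA5, PASD1, GABRQ, DAZL and SYCP3 were past the threshold in both responses without any 1 of the 8 arrays.

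The type II MAGE genes, which share the homology domain but are expressed in many tissues, were mostly not past the threshold. Of 9 tested, 1 rose and 2 fell in control clones, where 19.2% of all tested probes were higher and 22.6% lower. In TET1-KD clones 1 rose, against 8.91% of all tested probes. The shares of this list were near or below those of all probes. MAGED4B, not well above background before the drug, was at least 3.74-fold and 2.31-fold higher. MAGEF1 fell by 1.00 (adjusted p = 0.00809) and MAGEE1 by 0.90 (adjusted p = 0.0166) in control clones. In TET1-KD clones their changes were -0.10 and -0.66, neither past the threshold. With spike-in scaling neither passed in control clones, where MAGEF1 changed by -0.49 (adjusted p = 0.117) and MAGEE1 by -0.57 (adjusted p = 0.0736).

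Among 14 tested partners and targets of MAGE ubiquitin ligases, 6 fell and 1 rose in control clones. There 22.6% of all tested probes were lower and 19.2% higher. In TET1-KD clones 2 fell and 0 rose, against 2.9% lower and 8.91% higher of all tested probes. TRIM28, the ligase partner of MAGEA3, MAGEA6 and MAGEC2, fell by 0.54 (adjusted p = 0.0278) in control and by 0.61 (adjusted p = 0.0471) in TET1-KD clones. HDAC1, a deacetylase, fell by 0.74 (adjusted p = 0.0103) and by 0.69 (adjusted p = 0.0337). In control clones USP7, a deubiquitinase, fell by 1.91 (adjusted p = 0.00253) and MDM4 by 0.82 (adjusted p = 0.0272), while in TET1-KD clones these changed by -0.81 and -0.57 without passing. With spike-in scaling MDM4 changed by -0.40 in control clones (adjusted p = 0.175), and the calls of TRIM28 (adjusted p = 0.104) and HDAC1 (adjusted p = 0.0757) in TET1-KD clones were lost.

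Of 15 tested genes of the machinery that presents MAGE peptides, 3 rose and 2 fell in control clones, where 19.2% of all tested probes were higher and 22.6% lower. In TET1-KD clones 1 rose and 1 fell, against 8.91% and 2.9%. These shares were near or below those of all probes, or rested on 1 gene. The class I heavy chain gene HLA-B rose by 0.60 (adjusted p = 0.0384) in control clones, against -0.01 in TET1-KD clones, not past the threshold. With the GC correction HLA-B changed by 0.15 in control clones (adjusted p = 0.543). PSMB8, an immunoproteasome subunit not well above background before the drug, was at least 2.66-fold and 2.56-fold higher in control and TET1-KD clones. With quantile normalisation PSMB8 passed in neither (adjusted p = 0.0899 and 0.0902, limma). PSMB9, another subunit, fell by 1.76 (adjusted p = 0.0163) and NLRC5, the activator of class I genes, by 0.90 (adjusted p = 0.0095) in control clones, and with spike-in scaling PSMB9 changed by -1.15 (adjusted p = 0.0571) and NLRC5 by -0.52 (adjusted p = 0.0679). ERAP2, which trims peptides, fell by 1.60 (adjusted p = 0.0335) in TET1-KD clones.

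Of 18 tested factors that bind or repress MAGEA promoters, 5 rose and 3 fell in control clones (19.2% and 22.6% of all tested probes), and 2 rose and 3 fell in TET1-KD clones (8.91% and 2.9% of all tested probes). CTCFL (BORIS), a germ cell paralogue of CTCF that was not well above background before the drug, was at least 9.99-fold and 10.96-fold higher in control and TET1-KD clones. CTCF fell by 0.57 (adjusted p = 0.0215) and by 0.59 (adjusted p = 0.0481), but with spike-in scaling it changed by -0.09 (adjusted p = 0.687) and -0.55 (adjusted p = 0.0944). MBD1, a methyl-CpG binding protein, rose by 1.14 (adjusted p = 0.00215) and by 0.99 (adjusted p = 0.00858). DNMT1, the maintenance methyltransferase that 5-aza-dC traps, rose by 0.74 in control clones (adjusted p = 0.00898) and changed by -0.54 in TET1-KD clones (adjusted p = 0.0643). With the GC correction the change in control clones was 0.13 (adjusted p = 0.502). The difference in response of DNMT1, in which slide and knockdown cannot be told apart, was -1.27 (adjusted p = 0.0260). That difference was not past the threshold without any 1 of the 8 arrays (adjusted p = 0.0551 to 0.123), without the filter on dim probes (adjusted p = 0.0625) or with the GC correction, where DNMT1 differed by -0.73 (adjusted p = 0.118). DNMT3A, a de novo methyltransferase, rose by 0.89 (adjusted p = 0.0075) in control clones.

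Of 17 tested neighbouring genes in Xq28, 4 rose and 4 fell in control clones, close to the 19.2% and 22.6% of all tested probes. In TET1-KD clones 3 rose, against 8.91% of all probes, and 2 of those 3 were above background on no untreated array. PNMA5, a paraneoplastic antigen family gene, rose by 7.28 (adjusted p = 3.73e-05) and 6.91 (adjusted p = 6.32e-05). PASD1, another cancer-testis gene, was at least 54.8-fold and 42.6-fold higher, and GABRQ, a GABA receptor subunit, at least 2.52-fold and 2.26-fold. TREX2 fell by 1.55 (adjusted p = 0.0117) and MTMR1 by 0.85 (adjusted p = 0.0244) in control clones. CSAG2, which lies among the MAGEA genes, fell by 0.53 (adjusted p = 0.0352) in control clones. With spike-in scaling MTMR1 changed by -0.24 (adjusted p = 0.481) and CSAG2 by -0.17 (adjusted p = 0.459).

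**Figure D5:**
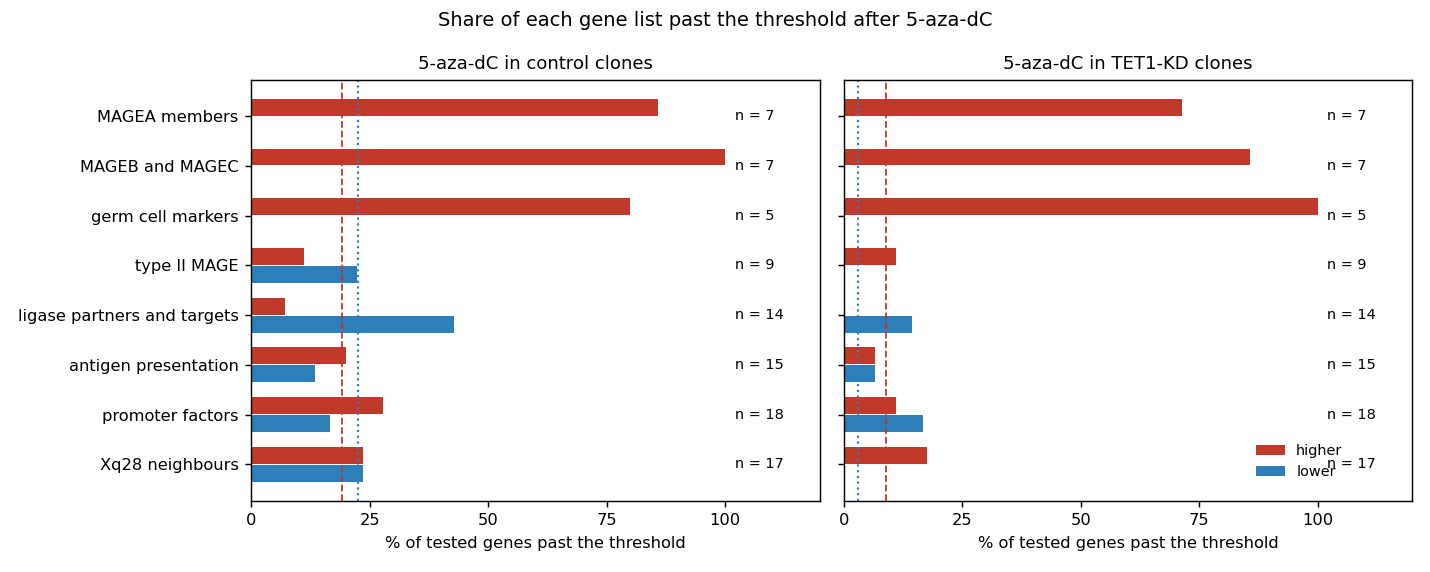
Share of the tested genes of each list that were higher (red) or lower (blue) after 5-aza-dC in control clones (left) and TET1-KD clones (right), with the share of all tested probes as dashed (higher) and dotted (lower) lines and the number of genes tested at the right. In control clones 6 of 7 MAGEA genes, 7 of 7 MAGEB and MAGEC genes and 4 of 5 germ cell markers were higher, and many of these were tested only because the treated arrays were above background.

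Markers of other cell types were read in the same way. Of 6 germ cell markers none was above background on an untreated array, and their summed scaled intensity was 39.3 to 48.9 untreated and 1560 to 2790 after the drug. DAZL, an RNA-binding protein of germ cells, was at least 36.3-fold and 40.05-fold higher in control and TET1-KD clones, and SYCP3, a protein of the meiotic chromosome axis, at least 27.9-fold and 33.0-fold. PRM1, a sperm protamine, was not above background on any array. Blood cell markers (4 with a probe, with CD14 and PTPRC above background on all arrays and CD3E on no treated array) summed to 110 to 166 untreated and 391 to 1600 treated, fibroblast markers (5) to 342 to 451 and 643 to 902, and endothelial markers (3) to 94.6 to 115 and 193 to 286. Epithelial markers (9) summed to 326000 to 359000 and 326000 to 394000, with EPCAM, CDH1, KRT8, KRT18 and KRT19 above background on all arrays and CDH17 and TSPAN8 on none. The part of other cell types in the MAGEA rises was not tested.

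The profile over the 8 arrays most like the mean of the 7 members, among 15415 other gene symbols, was that of LUZP4, with a Pearson correlation of 0.9998. HDGFRP3 (0.9992), DAZ2 (0.9991), TDRD12 (0.999) and PRSS50 (0.9989) followed. These values describe 8 arrays from 4 clones that split into treated and untreated, and they mostly restate that split. LUZP4, an X-linked cancer-testis gene of messenger RNA export, was at 1.92 to 2.29 on the untreated arrays and at 7.56, 7.55, 7.05 and 8.13 in treated CONT1, CONT2, TET1-KD1 and TET1-KD2. TDRD12, a gene of the germ cell piRNA pathway, was at 9.46, 9.43, 8.54 and 10.34 after treatment. In both genes, as in MAGEA11, treated TET1-KD1 was the lowest and treated TET1-KD2 the highest clone. Of the members, MAGEA8 was closest to the mean profile (0.9972) and MAGEA12 furthest (0.8304).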

How the data were processed

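RNA of 4 HCT116 clones, untreated and after 5-aza-dC, was labelled and hybridised to Agilent SurePrint G3 Human GE 8x60K arrays. The authors deposited the scanner output of Agilent Feature Extraction 10.7, whose processed intensity is background-subtracted and not normalised between arrays, and a table of the series whose values differ from these intensities by at most 0.497%. Here each intensity was scaled to the 75th percentile of its array, set to at least 1 and put on the log2 scale, since the deposited values are linear. Spots with outlier flags were left out, and spots of 1 probe were averaged. Tests were run on the 27287 of 50599 probes that exceeded background in both clones of 1 or more conditions. Without counts, the number of arrays limits precision.

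limma 3.58.1 (R 4.3.3) was fitted to all 8 arrays with 4 group means, and p-values were adjusted by Benjamini-Hochberg over all tested probes (threshold 0.05). n = 2 clones a condition. Separate clones were the replicates, with 1 array for each clone and condition. The spread behind the p-values thus mixes clones and arrays, and in the TET1-KD group also the different artificial microRNAs. It was also moderated over all tested probes, and the fit took the untreated and treated arrays of a clone as independent. The fit was tested on simulated data. Each gene was represented by its brightest tested probe, and all probes of the members are given. Alternatives were another background correction, normalisation, offset, filters, flagged spots kept, the series table, spike-in scaling, a GC correction, the samples in the fit, the mean of probes, a minimum fold of 2, unmoderated variance and leaving out each array. Since the untreated and treated arrays of a number come from the same clone, clone was also used as a replicate block; deviations of arrays of 1 clone correlated at 0.198 (control) and 0.476 (TET1-KD).

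The members and gene lists were chosen with earlier results of these data known. Named genes were all members, listed genes past the threshold in a response to 5-aza-dC (at most 5 a list and comparison), TET1, the 5 symbols with the highest correlation to the mean member profile, and genes that a result turns on. Some listed genes are counted in their lists and not reported here by name. Probe positions are those of the files (hg19), and promoter sequences are from RefSeq (GRCh38.p14).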

Additional observations from a re-analysis of the deposited data

Results flagged for a closer look

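The 10-spot MAGEA6 probe stood out because both control clones were lower and both TET1-KD clones higher after 5-aza-dC. The difference in response was 1.25 on the log2 scale and missed the threshold (adjusted p = 0.0618, limma), and the brighter MAGEA6 probe gave -0.13 (adjusted p = 0.781). DNMT1 stood out because its response differed between TET1-KD and control clones by -1.27 in the test of the difference itself (adjusted p = 0.0260, limma). Both differences use the treated control arrays of the later slide, so slide and knockdown cannot be told apart in them. The DNMT1 difference was not past the threshold without any 1 of the 8 arrays or with the GC correction (-0.73, adjusted p = 0.118).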

How the results depend on the processing

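The 5 counts of members past the threshold were recomputed under each alternative. In control clones the count of 6 became 3 when testing was limited to probes that exceeded background on every array, and in TET1-KD clones the count of 5 became 2, because that filter removes MAGEA8, MAGEA10 and MAGEA11 and leaves 4 members. In TET1-KD clones it became 0 with the methods' t-test, which uses the variance of each probe alone. That test called 0 of all tested probes in TET1-KD clones after adjustment, against 4500 at an unadjusted p under 0.05, and in control clones 2152 higher and 2011 lower, where limma called 5234 and 6168. For TET1-KD against control clones after 5-aza-dC, leaving out 1 array at a time gave counts of 0 to 1 where the count was 0, and the 1 was MAGEA10 without treated TET1-KD1 and MAGEA11 without treated TET1-KD2. The other recomputed counts stayed within 1.5 times the reported ones. With clone as a replicate block the counts were 6 in control and 5 in TET1-KD clones, and with the GC correction and the replicate block 5 and 5, so the block moved no count by more than 1.5 times. No member value past the threshold changed sign. Of 56 listed genes called in control and 29 in TET1-KD clones, 25 and 11 were not past the threshold under at least 1 of 4 other scalings (normexp, quantile, spike-in, GC), and 0 changed direction. The fitted changes of MAGEA8, MAGEA10 and MAGEA11 depend on the offset (MAGEA10 in control clones, 2.72 to 7.05 over the alternatives), so only their bounds are given as folds. Signal over background limits these 3 genes before the drug, and 2 clones a condition limit the comparison of TET1-KD with control clones.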
